A study of Mus musculus with 72 samples.

Results

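The levels of 8 named long noncoding RNAs, 2900052L18Rik, 9430053O09Rik, Mirg, Rian, Meg3, Miat, Malat1 and Neat1, were followed in the mouse hippocampus across fear learning, memory retrieval and time of day. The list was chosen by name with measured differences of these data after learning, after retrieval and by time of day already known, so comparisons with untrained or retrieval mice are described without a test. A member was taken as the probe set (a group of short DNA probes that together report a transcript) whose annotation names it. Of the 8 RNAs, 6 were found, each by 1 probe set of the 35556 on the array, and Miat and Neat1 were matched by no symbol, gene identifier or accession and were not analysed here. The probe set of Mirg is annotated with both Mirg and Mir410, so the lncRNA and the microRNA inside it cannot be told apart in it. The probe set of 9430053O09Rik carries another gene identifier than the reference gene of that name and was tied to it by its symbol alone.

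Male C57BL/6J mice, 2 months old, were trained in contextual fear conditioning, in which a single foot shock (2 s at 1.5 mA) makes the animal fear the chamber it was given in, and total RNA of the hippocampi of 1 mouse was hybridised to each of 72 whole-transcript arrays, 9 for each of 8 groups. The time from training to dissection was 30 min in FC30, 4 h in FC4, 12 h in FC12 and 24 h in FC24, and retrieval mice (RT30) were put back in the chamber for 5 min at 24 h and killed 30 min after that test. Untrained but handled mice were collected at the times of day of the 30 min, 4 h and 12 h groups (CC30, CC4 and CC12), and CC30 also stands for the controls of FC24 and RT30. Training fell at zeitgeber time 3 (hours after lights on), so that FC30 and CC30 were collected at zeitgeber time 3.5, FC4 and CC4 at 7, FC12 and CC12 in the dark at 15, and FC24 in the morning at 3. No group was given a shock without the chamber or the chamber without a shock, so the parts of the training procedure cannot be separated.

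Long noncoding RNAs (lncRNAs) are long transcripts that are not translated, and many act in the nucleus where they are made. Meg3, Rian and Mirg are transcribed in the same direction from the maternal copy of an imprinted region that also holds one of the largest microRNA clusters of the mouse and an array of C/D box small nucleolar RNAs (snoRNAs), which guide the methylation of other RNAs. Meg3 lies upstream of Rian and Mirg, Rian hosts snoRNAs and Mirg hosts microRNAs, among them Mir410. Malat1 is an abundant RNA of nuclear speckles, compartments rich in splicing factors, Neat1 is the scaffold of paraspeckles, and Miat is a neuronal nuclear RNA that binds splicing factors. No function is given here for 2900052L18Rik and 9430053O09Rik.

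The promoter windows of the members whose level differed most between groups, and of Meg3, which lies upstream of Rian and Mirg, are printed from RefSeq (GRCm38.p6). They hold 250 bases before and 50 after the annotated start. Capitals mark matches on either strand to TGACGTCA (the cAMP response element), its shorter form TGACG, which lies inside the full site, CACGTG (the E-box bound by clock factors) or AGGTCA (bound by nuclear receptors such as Nr1d1 and Rora).
2900052L18Rik (chr11:120231568-120231867, minus strand): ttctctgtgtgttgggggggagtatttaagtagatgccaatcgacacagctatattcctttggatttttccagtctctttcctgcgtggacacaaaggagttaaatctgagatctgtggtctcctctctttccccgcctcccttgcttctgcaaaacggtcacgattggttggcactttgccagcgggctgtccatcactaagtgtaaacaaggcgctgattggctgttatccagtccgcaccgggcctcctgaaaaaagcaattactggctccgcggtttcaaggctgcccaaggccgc
9430053O09Rik, most upstream of 3 starts (chr16:77422834-77423133, minus strand): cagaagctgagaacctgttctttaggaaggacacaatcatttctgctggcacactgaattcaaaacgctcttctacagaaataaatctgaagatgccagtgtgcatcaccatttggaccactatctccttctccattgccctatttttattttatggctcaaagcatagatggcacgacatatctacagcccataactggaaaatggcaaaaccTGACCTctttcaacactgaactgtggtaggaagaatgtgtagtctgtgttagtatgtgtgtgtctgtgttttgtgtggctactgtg
Mirg (chr12:109734731-109735030, plus strand): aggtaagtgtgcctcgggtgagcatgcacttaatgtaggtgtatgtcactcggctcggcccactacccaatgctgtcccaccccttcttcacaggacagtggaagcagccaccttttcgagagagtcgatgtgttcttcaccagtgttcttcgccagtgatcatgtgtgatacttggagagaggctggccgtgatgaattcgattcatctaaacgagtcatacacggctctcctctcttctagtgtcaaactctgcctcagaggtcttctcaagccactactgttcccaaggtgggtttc
Rian (chr12:109603695-109603994, plus strand): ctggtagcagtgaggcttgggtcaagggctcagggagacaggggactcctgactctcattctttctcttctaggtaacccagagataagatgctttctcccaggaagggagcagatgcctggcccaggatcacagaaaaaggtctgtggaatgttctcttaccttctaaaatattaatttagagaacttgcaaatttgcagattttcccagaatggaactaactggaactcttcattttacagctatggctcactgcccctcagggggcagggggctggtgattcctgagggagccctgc
Meg3, upstream of 2 starts (chr12:109540746-109541045, plus strand): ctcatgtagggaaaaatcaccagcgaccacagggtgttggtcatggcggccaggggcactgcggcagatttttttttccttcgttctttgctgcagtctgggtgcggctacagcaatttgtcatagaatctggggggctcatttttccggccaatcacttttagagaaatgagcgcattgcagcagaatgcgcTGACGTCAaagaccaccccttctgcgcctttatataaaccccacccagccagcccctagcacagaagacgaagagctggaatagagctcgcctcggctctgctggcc
The full cAMP response element was in 1 of 10 member windows, that of Meg3, where it began 57 bases before the start, and in 1.79% of all 32851 windows. The E-box was in 0 of the 10 member windows and in 7.15% of all windows. AGGTCA stood in 2 member windows, the most upstream start of 9430053O09Rik and the other start of Meg3, against 16.3% of all windows. TGACG occurred in the windows of Meg3 and Malat1 and in 20.8% of all windows. The 2 mature microRNAs of Mir410, whose annotation shares the Mirg probe set, are given with their seed (bases 2 to 8) in capitals.
mmu-miR-410-5p: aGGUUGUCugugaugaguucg
mmu-miR-410-3p: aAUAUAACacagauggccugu
The seeds of the 2 arms are different.

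The values are log2 signals after the robust multi-array average (RMA) of the authors and subtraction of the first principal component, the pattern shared most widely among probe sets, which held 17.4% of the variance. They compare a probe set between arrays and not with another probe set. Groups were compared in pairs with limma, two-sided, and a probe set counted as changed where its p, adjusted after Benjamini and Hochberg across the 35556 probe sets, was under 0.1. Tests are given for FC12 against FC24, FC12 against FC4 and FC4 against FC24, comparisons within trained mice in which time of day and time since training cannot be told apart. The tissue was whole hippocampus, where fewer cells of a type and less RNA per cell cannot be told apart. Of 53 measured markers of 11 cell types, 3 were higher and 2 lower in FC12 than in FC24, beside 3.19% of all probe sets. In FC12 against FC4, 3 were higher and 3 lower, beside 4.22% of all probe sets. The markers of choroid plexus passed the test in 0 of 5 cases in either comparison, and their summed level (log2) spanned 8.36 to 12.0 in FC12, 8.83 to 12.2 in FC4 and 8.85 to 12.37 in FC24. The part of these markers in the levels of the lncRNAs was not tested. There were 6 arrays, 1 each in FC30, FC12, FC24, CC30, CC4 and CC12, that stood apart from the rest, and leaving them out left the number of members past the threshold unchanged in the 3 tested comparisons.

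**Figure D1:**
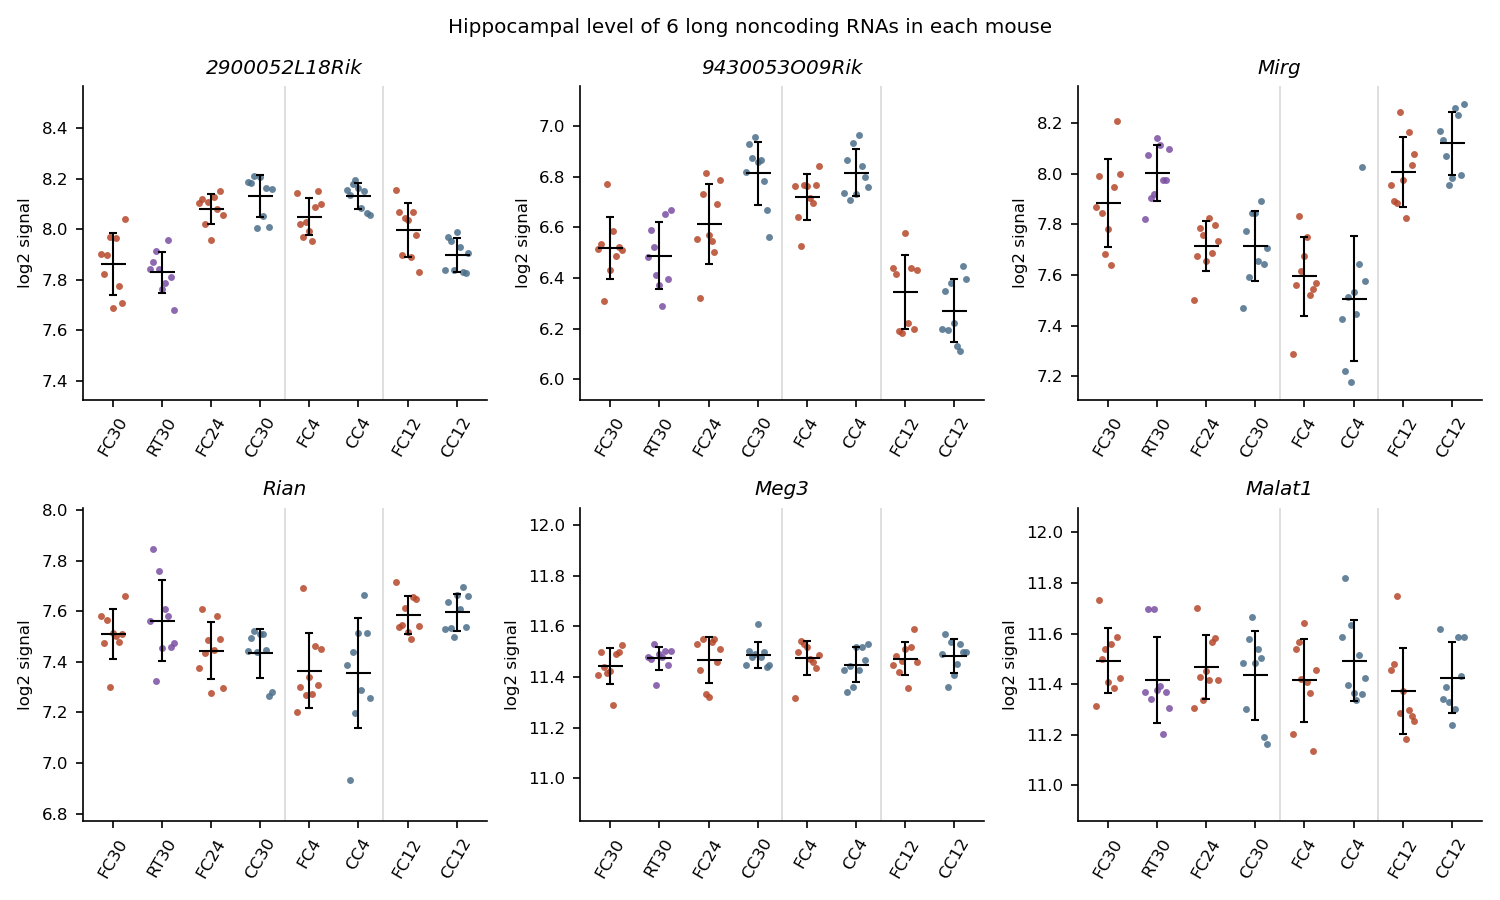
Log2 signal (y axis) of each of the 6 measured lncRNAs in every mouse (points, 9 for each group), with the group mean and SD (black bars) and groups along the x axis, trained in red, retrieval in purple and untrained in blue. The y axes span the same width. Mirg and Rian sit high in FC12, CC12 and RT30, and 9430053O09Rik sits low in FC12 and CC12. 2900052L18Rik sits low in FC30, RT30 and CC12. The group means span 11.44 to 11.49 for Meg3 and 11.37 to 11.49 for Malat1.

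Mirg, Rian and 9430053O09Rik differed between trained mice collected at different times, Mirg and Rian being higher and 9430053O09Rik lower at 12 h, whereas Meg3 and Malat1 did not pass the test. The comparisons share mice, so that they are not independent of each other. They also hold the time-of-day difference that was known for the members in other mice, and whether the trained groups entered the choice is not stated, so the counts below stand beside those of all probe sets as a description and nothing is read from them about the members as a group. In FC12 against FC24, 2 of 6 members passed the threshold, 1 higher and 1 lower, against 3.19% of all probe sets. In FC12 against FC4, 3 of 6 passed, 2 higher and 1 lower, against 4.22% of all probe sets. In FC4 against FC24, 0 of 6 passed by limma, against 0.112% of all probe sets, and 0 by the methods' t-test with Benjamini-Hochberg adjustment. An unadjusted limma p under 0.05 was found for 0 of 6 members, against 2662 of the 35556 probe sets.

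Mirg, the microRNA host gene downstream of Meg3 and Rian in the imprinted region, was the most changed of the 6 upward. Its log2 signal was 7.83 at the lowest, 7.97 at the median and 8.24 at the highest in FC12 mice, against 7.50, 7.74 and 7.83 in FC24 mice. Every FC12 mouse lay above every FC24 mouse, though the nearest mice of the groups round to the same value. Mean levels were 8.01 ± 0.14 in FC12 and 7.71 ± 0.10 in FC24 (SD, n = 9 each), a log2 difference of 0.29 (SE 0.055, limma adjusted p = 0.00767), or 1.225-fold. In FC4 mice the lowest, median and highest levels of Mirg were 7.29, 7.57 and 7.83. All 9 FC12 mice were above the FC4 mean and 8 of them above every FC4 mouse, with a log2 difference of 0.41 (SE 0.066, adjusted p = 0.00239), 1.33-fold. Mirg did not pass the test in FC4 against FC24, with a log2 difference of −0.12 (SE 0.059, 95% interval −0.24 to 0.01, adjusted p = 0.678).

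Rian, the snoRNA host of the same region, moved in the same direction as Mirg by a smaller amount. Its level was 7.49, 7.55 and 7.72 (lowest, median, highest) in FC12 mice, against 7.20, 7.31 and 7.69 in FC4 mice. All 9 FC12 mice lay above the FC4 mean, but only 1 lay above every FC4 mouse, because a single FC4 mouse was high. Rian was higher by 0.22 on the log2 scale (SE 0.054, adjusted p = 0.0375), a call that the local false discovery rate of the study's methods did not make (0.406). Against FC24 mice, whose levels were 7.28, 7.45 and 7.61, the difference was 0.14 (SE 0.045, 95% interval 0.05 to 0.24) and did not pass the test (adjusted p = 0.139). In FC4 against FC24 the difference was −0.08 (SE 0.06, adjusted p = 0.821).

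Meg3, the third long noncoding RNA of the region, had group means between 11.44 and 11.49 in all 8 groups. It was 11.36, 11.46 and 11.59 in FC12 mice, against 11.32, 11.49 and 11.54 in FC4 mice and 11.32, 11.51 and 11.55 in FC24 mice. The log2 difference was 0.00 in both FC12 comparisons (95% interval −0.08 to 0.08 against FC24, adjusted p = 0.982, and −0.07 to 0.07 against FC4, adjusted p = 0.991), and 0.01 in FC4 against FC24 (−0.08 to 0.09, adjusted p = 0.987). Across all 14 comparisons its log2 differences lay between −0.04 and 0.03.

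Between Meg3 and the end of Mirg, 37 further genes have a probe set, microRNAs and a snoRNA, in which an array probe set may report the precursor or host transcript as well as the mature RNA. In FC12 against FC24, 0 of the 37 passed the threshold by limma, and their median log2 difference was −0.02, with 16 of 37 above 0, against a median of 0.000286 over all probe sets. In FC12 against FC4, 1 rose and 0 fell, with a median of 0.02 and 21 above 0, against 0.00384 over all probe sets. The gene that rose was AF357355, a snoRNA gene inside Rian, by 0.21 (SE 0.059, adjusted p = 0.0731) against FC4, and its difference from FC24 was 0.17 (SE 0.06, adjusted p = 0.172). The 7 other microRNA genes inside Mirg with a probe set of their own (Mir154, Mir496a, Mir377, Mir541, Mir409, Mir412 and Mir369) passed in 0 cases, with a median of 0.07 in both FC12 comparisons. Picked after their values were seen as the extremes of these 7, Mir377 differed by 0.11 (SE 0.058, adjusted p = 0.397) and Mir541 by −0.16 (SE 0.059, adjusted p = 0.191) in FC12 against FC4. Of the 56 small RNA genes listed for the region, 36 were measured and 0 passed in any tested comparison. Mir496a (0.13 in FC12 against FC24, adjusted p = 0.192) and Mir379 (−0.24, adjusted p = 0.21) had the smallest p in FC12 against FC24. The 5 measured protein-coding genes of the region, of 6 listed, passed in 0 cases, with Dio3, a thyroid hormone deiodinase, at −0.12 (adjusted p = 0.679) and Begain at −0.04 (adjusted p = 0.71) in FC12 against FC24.

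**Figure D2:**
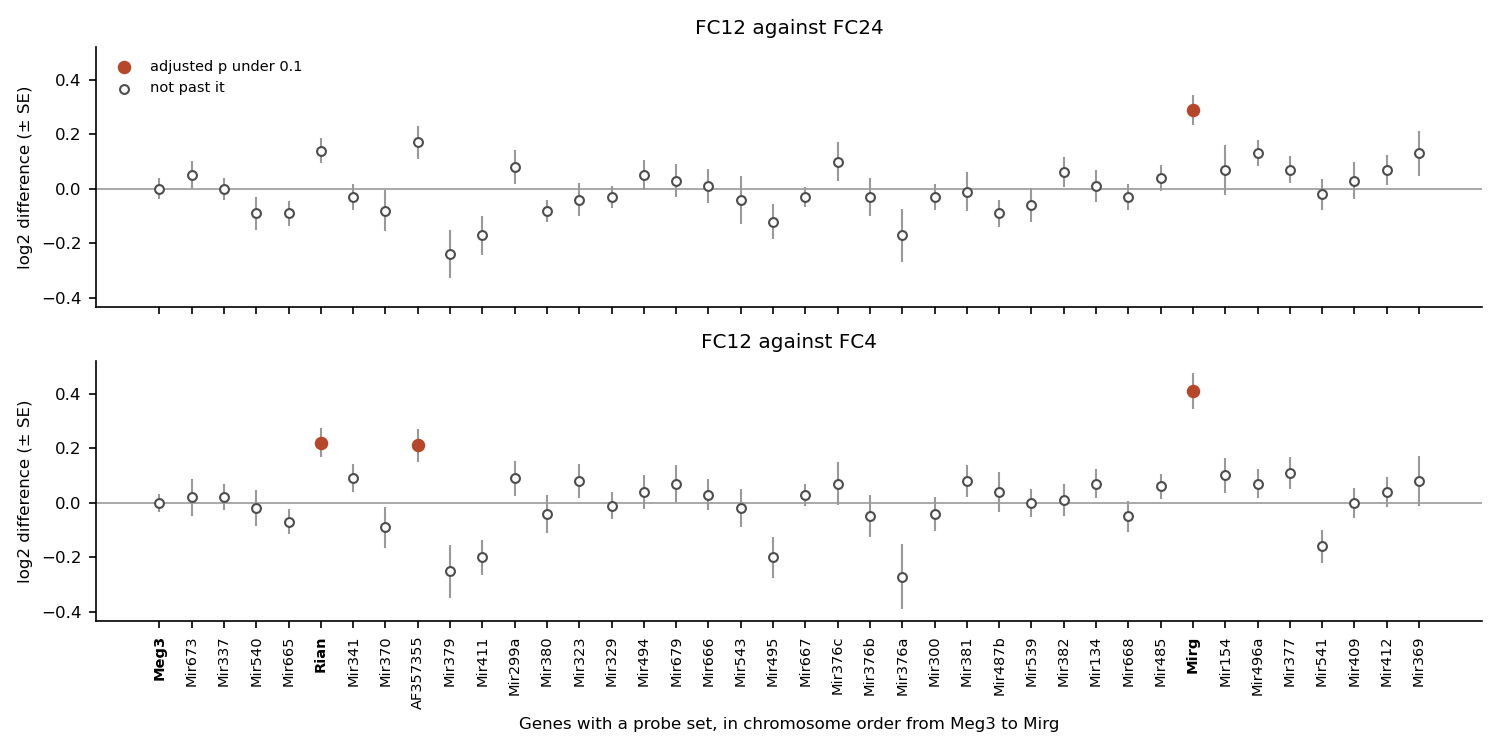
Log2 difference (y axis, ± SE) of the 40 genes with a probe set from Meg3 to the end of Mirg, in chromosome order (x axis), for FC12 against FC24 (top) and FC12 against FC4 (bottom). Filled points passed an adjusted p of 0.1: Mirg at 0.29 in the upper panel, and Rian at 0.22, AF357355 at 0.21 and Mirg at 0.41 in the lower one.

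9430053O09Rik was the member that fell in both FC12 comparisons. Its level was 6.18, 6.41 and 6.58 (lowest, median, highest) in FC12 mice, against 6.32, 6.57 and 6.82 in FC24 mice. The groups overlapped, with all 9 FC12 mice below the FC24 mean and 4 below every FC24 mouse. The resulting log2 difference was −0.27 (SE 0.069, adjusted p = 0.0499), which by local false discovery rate (0.11) fell just outside the threshold of 0.1. In FC4 mice the levels were 6.53, 6.76 and 6.84, and 8 of 9 FC12 mice lay below every FC4 mouse. The log2 difference from FC4 was −0.38 (SE 0.056, adjusted p = 0.00131), 0.77-fold. In FC4 against FC24 it was 0.11 (SE 0.059, 95% interval −0.02 to 0.23, adjusted p = 0.723). In the gene table of the reference, 9430053O09Rik overlaps Mir99ahg, a long noncoding RNA that hosts microRNAs, and is followed by Mir99a. Mir99ahg differed by −0.01 (SE 0.053, adjusted p = 0.957) in FC12 against FC24 and by 0.06 (SE 0.052, adjusted p = 0.648) in FC12 against FC4. Mir99a differed by −0.13 (SE 0.059, adjusted p = 0.367) and −0.09 (SE 0.045, adjusted p = 0.356).

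2900052L18Rik did not pass the test within trained mice. Its level was 7.83, 8.04 and 8.16 (lowest, median, highest) in FC12 mice, against 7.96, 8.03 and 8.15 in FC4 mice and 7.96, 8.10 and 8.15 in FC24 mice. The 3 groups overlapped. The log2 difference was −0.08 (SE 0.041, 95% interval −0.17 to 0.00, adjusted p = 0.422) in FC12 against FC24, −0.05 (SE 0.043, adjusted p = 0.598) in FC12 against FC4 and −0.03 (SE 0.034, adjusted p = 0.9) in FC4 against FC24. Its neighbours in the gene table are the noncoding 2810410L24Rik, at −0.09 (SE 0.05) in FC12 against FC24 and −0.06 (SE 0.052) in FC12 against FC4, and Bahcc1, a gene of a chromatin reader protein, at −0.06 (SE 0.042) and 0.05 (SE 0.034). Of the 12 neighbouring genes of the 6 members, 0 passed the threshold in the 3 tested comparisons, the smallest limma adjusted p being 0.33.

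Malat1 did not pass the test in any of the 3 comparisons. Its level was 11.18, 11.30 and 11.75 in FC12 mice, against 11.14, 11.42 and 11.64 in FC4 mice and 11.30, 11.43 and 11.70 in FC24 mice. The FC12 mice alone spanned nearly the whole range, and the groups overlapped throughout. The log2 difference was −0.10 (SE 0.068, 95% interval −0.24 to 0.05, adjusted p = 0.624) in FC12 against FC24, −0.04 (SE 0.075, adjusted p = 0.835) in FC12 against FC4 and −0.05 (SE 0.066, adjusted p = 0.912) in FC4 against FC24. Ltbp3, a latent TGF-beta binding protein, and Frmd8, its neighbours with a probe set, differed by −0.12 (SE 0.056, adjusted p = 0.388) and 0.05 (SE 0.047, adjusted p = 0.758) in FC12 against FC24.

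**Figure D3:**
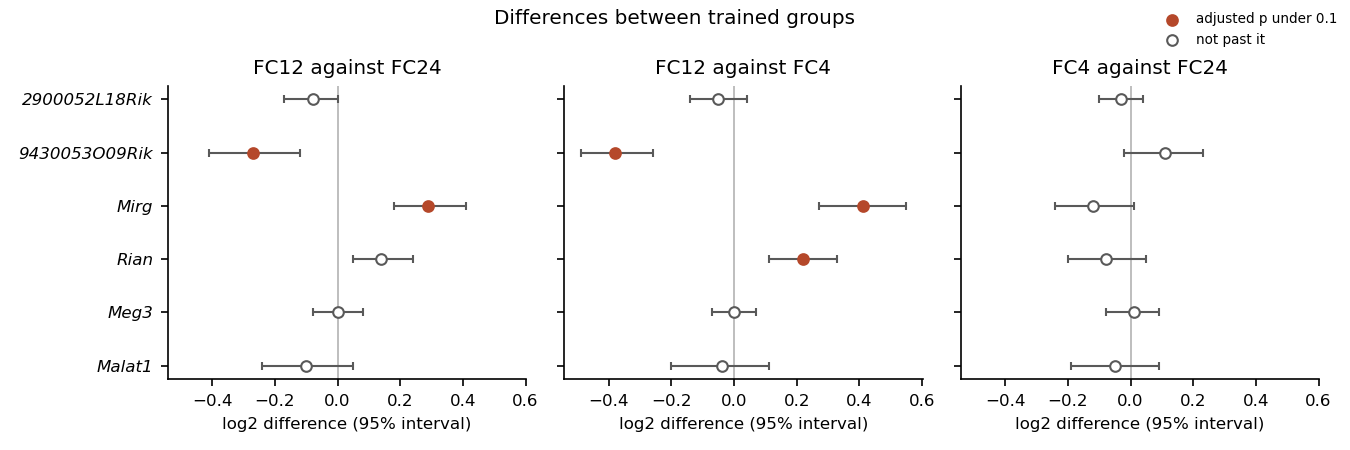
Log2 difference (x axis) with its 95% interval (bars) of the 6 lncRNAs (y axis) in FC12 against FC24, FC12 against FC4 and FC4 against FC24. Filled points passed an adjusted p of 0.1: 9430053O09Rik at −0.27 and Mirg at 0.29 in the left panel, 9430053O09Rik at −0.38, Mirg at 0.41 and Rian at 0.22 in the middle panel, and 0 members in the right panel.

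At 30 min after training or retrieval, 2900052L18Rik and 9430053O09Rik averaged lower and Mirg higher than in untrained mice. Because the members were chosen with these comparisons known, their values are a description, without p, and nothing is read from the counts past the threshold. These counts were 0 higher and 2 lower in FC30 against CC30 (0.256% of all probe sets), and 1 higher and 2 lower in RT30 against CC30 (0.278%). They were 0 of 6 in FC24 against CC30, FC4 against CC4 and FC12 against CC12, where 0% of all probe sets passed by limma and 1534, 1902 and 1442 probe sets had an unadjusted p under 0.05. Choroid plexus markers, which a dissection can carry along, had log2 differences above 0 in 5 of 5 cases in FC30 against CC30 (median 0.406), 3 of 5 in RT30 against CC30 (median 0.096) and 5 of 5 in FC24 against CC30 (median 0.255), with 0 of 5 past the threshold in each. Their summed level (log2) spanned 9.0 to 11.98 in FC30, 8.63 to 11.36 in RT30 and 8.85 to 12.37 in FC24, against 8.6 to 11.76 in CC30. Their part in the values of the lncRNAs was not tested.

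The level of 2900052L18Rik was 7.69, 7.90 and 8.04 (lowest, median, highest) in FC30 mice and 7.68, 7.84 and 7.96 in RT30 mice, against 8.0, 8.16 and 8.21 in CC30 mice. Every RT30 mouse lay below every CC30 mouse, and 8 of 9 FC30 mice did. On the log2 scale it differed by −0.27 (SE 0.049) in FC30 and −0.30 (SE 0.04) in RT30. In FC24 mice, which were collected a day after training without retrieval, the difference from CC30 was −0.05 (SE 0.036). It was −0.08 (SE 0.033) in FC4 against CC4 and 0.10 (SE 0.042) in FC12 against CC12, so that trained mice averaged below untrained mice at 4 h and above them at 12 h, by amounts near the SD within these groups, 0.05 to 0.11.

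The level of 9430053O09Rik was 6.31, 6.51 and 6.77 in FC30 mice, 6.29, 6.48 and 6.67 in RT30 mice and 6.32, 6.57 and 6.82 in FC24 mice, against 6.56, 6.86 and 6.96 in CC30 mice. All 9 FC30 mice and all 9 RT30 mice were below the CC30 mean, and 8 of 9 FC24 mice were. The log2 differences were −0.29 (SE 0.057) in FC30, −0.33 (SE 0.059) in RT30 and −0.20 (SE 0.065) in FC24. They were smaller at the other times, −0.09 (SE 0.044) in FC4 against CC4 and 0.07 (SE 0.062) in FC12 against CC12. All of the values against CC30 share the same 9 control mice.

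Mirg was 7.64, 7.87 and 8.21 in FC30 mice and 7.82, 7.98 and 8.14 in RT30 mice, against 7.47, 7.71 and 7.89 in CC30 mice. The groups overlapped, with 4 of 9 FC30 mice and 8 of 9 RT30 mice above every CC30 mouse. Mirg differed by 0.17 (SE 0.071) on the log2 scale in FC30, 0.29 (SE 0.057) in RT30 and 0.00 (SE 0.055) in FC24 against CC30. Rian differed by 0.08 (SE 0.046), 0.13 (SE 0.06) and 0.01 (SE 0.049) in the same comparisons. Against the controls of their own time, Mirg differed by 0.09 (SE 0.092) in FC4 and −0.11 (SE 0.06) in FC12, and Rian by 0.01 (SE 0.083) and −0.01 (SE 0.036). Meg3 differed by −0.04 (SE 0.032) in FC30, −0.01 (SE 0.027) in RT30 and −0.02 (SE 0.036) in FC24 against CC30, and Malat1 by 0.06 (SE 0.069), −0.02 (SE 0.077) and 0.03 (SE 0.069).

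Retrieval was set against training alone in the same way. In RT30 against FC30, 0 of 6 members and 0% of all probe sets were past the threshold by limma, with 1386 probe sets at an unadjusted p under 0.05, and Mirg had the largest difference of the 6, 0.12 (SE 0.066). In RT30 against FC24, mice trained a day earlier with and without a return to the chamber, 1 member was higher and 1 lower past the threshold (0.152% of all probe sets). These were Mirg, at 7.82 to 8.14 in RT30 mice and 7.50 to 7.83 in FC24 mice with a log2 difference of 0.29 (SE 0.049), and 2900052L18Rik, at 7.68 to 7.96 in RT30 mice and 7.96 to 8.15 in FC24 mice with a difference of −0.25 (SE 0.036). The RT30 and FC24 mice did not overlap in 2900052L18Rik before rounding. In 9430053O09Rik the difference was −0.13 (SE 0.066), with 1 of 9 RT30 mice below every FC24 mouse. In FC30 against FC24, 0 members were higher and 1 lower past the threshold (0.152% of all probe sets), 2900052L18Rik at −0.22 (SE 0.045), while Mirg differed by 0.17 (SE 0.064) and 9430053O09Rik by −0.09 (SE 0.064).

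In untrained mice, Mirg and Rian averaged higher and 9430053O09Rik and 2900052L18Rik lower in CC12, collected in the dark, than in CC4 or CC30, collected in the light. The members were chosen with such differences known, so these values too are a description, with nothing read from the counts. In CC12 against CC30, 2 members were higher and 2 lower past the threshold, beside 3.5% of all probe sets. In CC12 against CC4 the counts were 2 and 2, beside 5.01%, and in CC4 against CC30 0 of 6, beside 0.0731%. The choroid plexus markers lay above 0 in 5 of 5 cases in CC12 against CC30 (median 0.554) and in CC12 against CC4 (median 0.162), 0 of 5 past the threshold in either, and their summed level spanned 8.95 to 12.71 in CC12, against 9.01 to 12.35 in CC4 and 8.6 to 11.76 in CC30, a difference whose part was not tested. Mirg was 7.95, 8.13 and 8.28 (lowest, median, highest) in CC12 mice, against 7.18, 7.51 and 8.03 in CC4 mice and 7.47, 7.71 and 7.89 in CC30 mice. The CC12 mice lay apart from the CC30 mice and overlapped the CC4 mice, whose spread was wide (SD 0.25). Its log2 difference was 0.61 (SE 0.088) in CC12 against CC4, 0.41 (SE 0.06) in CC12 against CC30 and −0.21 (SE 0.09) in CC4 against CC30. Rian differed by 0.24 (SE 0.073), 0.16 (SE 0.041) and −0.08 (SE 0.075) in these comparisons. Of the 36 measured small RNA genes of the region, 31 lay above 0 in CC12 against CC30 (median 0.07). There, 1 was higher and 0 lower past the threshold. In CC12 against CC4, 28 of the 36 lay above 0 (median 0.067), with 3 higher and 0 lower past it. In FC12 against CC12, 2 of the 36 lay above 0 (median −0.075) and 0 passed. These counts too are a description.

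9430053O09Rik was 6.11, 6.22 and 6.45 in CC12 mice, against 6.71, 6.80 and 6.97 in CC4 mice and 6.56, 6.86 and 6.96 in CC30 mice. The CC12 mice lay below every mouse of CC4 and CC30, with log2 differences of −0.55 (SE 0.051) and −0.54 (SE 0.057). 2900052L18Rik was 7.83, 7.91 and 7.99 in CC12 mice, against 8.06, 8.15 and 8.19 in CC4 mice and 8.0, 8.16 and 8.21 in CC30 mice. These groups did not overlap either, and the log2 difference was −0.23 (SE 0.031 and 0.037) from each. Meg3 differed by 0.03 (SE 0.035) and Malat1 by −0.07 (SE 0.068) in CC12 against CC4.

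The difference between 12 h and 4 h was set side by side in trained and untrained mice. In 2900052L18Rik it was −0.05 in trained mice and −0.23 in untrained mice, a gap of 0.18 (SE 0.052, 95% interval 0.07 to 0.29). In 9430053O09Rik it was −0.38 in trained and −0.55 in untrained mice, a gap of 0.17 (SE 0.077, 95% interval 0.01 to 0.32). In Mirg it was 0.41 in trained and 0.61 in untrained mice, a gap of −0.20 (SE 0.113, 95% interval −0.43 to 0.03). The gap was −0.02 (95% interval −0.21 to 0.17) in Rian, −0.04 (−0.13 to 0.06) in Meg3 and 0.03 (−0.19 to 0.24) in Malat1. The members were chosen with differences of the untrained mice known, so no p is given and nothing is read from the gaps or their intervals.

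**Figure D4:**
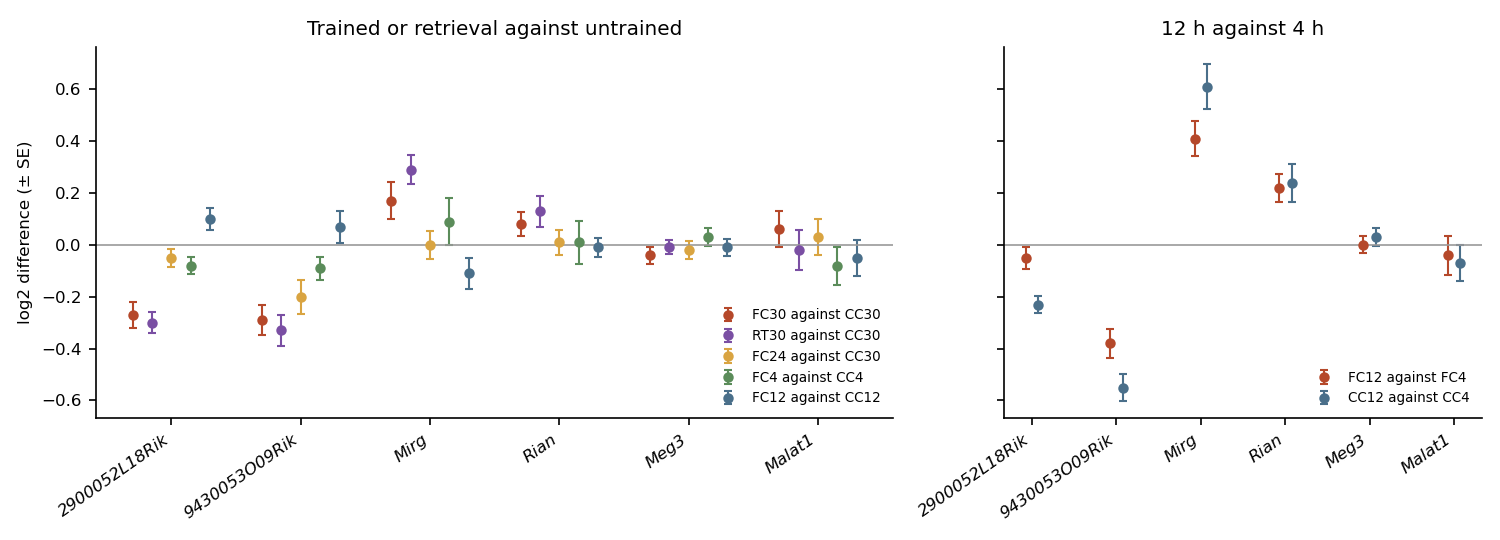
Log2 difference (y axis, ± SE) of the 6 lncRNAs (x axis), on the left for trained or retrieval mice against untrained mice and on the right for 12 h against 4 h in trained (red) and untrained (blue) mice. 2900052L18Rik and 9430053O09Rik lie near −0.3 in FC30 and RT30, and on the right 9430053O09Rik reaches −0.55 and Mirg 0.61 in untrained mice.

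The 8 groups were then ordered by their mean level. For 2900052L18Rik the lowest mean was that of RT30, 7.83 ± 0.08, and the highest those of CC30 and CC4, 8.13 ± 0.08 and 8.13 ± 0.05 (SD, n = 9 each). For 9430053O09Rik the order began with CC12, 6.27 ± 0.12, and FC12, 6.34 ± 0.15, and ended with CC30, 6.81 ± 0.13, and CC4, 6.82 ± 0.09. For Mirg it began with CC4, 7.51 ± 0.25, and FC4, 7.60 ± 0.16, and ended with FC12, 8.01 ± 0.14, and CC12, 8.12 ± 0.12. For Rian it began with CC4, 7.36 ± 0.22, and ended with CC12, 7.60 ± 0.07. The means of Meg3 spanned 11.44 to 11.49 and those of Malat1 11.37 to 11.49. Of the 42 steps between neighbouring groups in these orders, 0 were larger than the larger of the 2 SDs, so that neighbours did not differ beyond their spread for any member. Sorting puts the closest means side by side, so this count says nothing about groups further apart in an order.

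Over the 72 arrays, which share a hybridisation, the removal of a component and the group structure, Mirg and Rian varied together (Pearson r = 0.68), and r was 0.44 for their deviations from the group means. Mirg and Meg3 had an r of 0.34, and of 0.49 in the deviations. 9430053O09Rik ran opposite to Mirg (r = −0.68) and 2900052L18Rik did too (r = −0.62), but in the deviations these values were −0.13 and −0.27. The probe set most like Rian was AF357355, the snoRNA inside it (r = 0.75, and 0.66 in the deviations), followed by Tubd1, a delta tubulin gene (0.72, and 0.55). Meg3 was most like Snhg11, a noncoding host gene of snoRNAs (r = 0.70, and 0.69 in the deviations), and Cpne7, a copine (0.56, and 0.58). Those most like Mirg were Crip3 (0.80, and 0.41 in the deviations) and Acrbp (0.79, and 0.42). Those most like 9430053O09Rik were Cstad (0.81, and 0.50 in the deviations) and H3f3b, a gene of histone H3.3 (0.80, and 0.54). Those most like 2900052L18Rik were the brain microRNA gene Mir219a-2 (0.70, and 0.31 in the deviations) and Nemp2 (0.68, and 0.31). For Malat1 they were 2 probe sets of the ribosomal protein gene Rpl36a (both 0.79, and 0.79 and 0.78 in the deviations).

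Genes of the compartments in which Malat1 and Neat1 act were measured as lists, whose counts stand beside 3.19% of all probe sets past the threshold in FC12 against FC24 and 4.22% in FC12 against FC4, with nothing read from them about a list. Of 15 measured nuclear speckle proteins, 2 were higher and 1 lower in FC12 than in FC24, and 3 higher and 1 lower in FC12 than in FC4, with list medians of 0.027 and 0.014 (log2). Srsf2, an SR splicing factor, was higher by 0.13 (SE 0.027, adjusted p = 0.0189) and 0.09 (adjusted p = 0.0579), and Clk1, a kinase of SR proteins, by 0.21 (SE 0.055, adjusted p = 0.051) and 0.21 (adjusted p = 0.026). Picked after their values were seen, Srsf5 was lower by 0.16 on the log2 scale (difference −0.16, adjusted p = 0.0553) and 0.20 (−0.20, adjusted p = 0.00989), and Prpf4b was higher by 0.12 (adjusted p = 0.0488) in FC12 than in FC4 and differed by 0.07 (SE 0.027, adjusted p = 0.245) from FC24. Of 14 measured paraspeckle proteins, Zc3h6 was lower in FC12 than in FC24 (−0.19, SE 0.034, adjusted p = 0.00532) and differed by −0.14 (adjusted p = 0.19) from FC4. Sfpq, a core paraspeckle protein, was higher in FC12 than in FC4 (0.18, adjusted p = 0.0129) and differed by 0.10 (adjusted p = 0.247) from FC24. The paraspeckle list had medians of −0.001 and −0.011. The 3 listed proteins known to bind Miat passed in 0 cases, with Sf1 at −0.01 (adjusted p = 0.868) and Celf3 at 0.02 (adjusted p = 0.91) in FC12 against FC24.

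Of 75 other long noncoding RNAs listed, 26 were measured. In each FC12 comparison 1 of the 26 was higher and 0 lower, beside 3.19% of all probe sets against FC24 and 4.22% against FC4, and the list medians were −0.017 and 0.01. The RNA that was higher was A330023F24Rik, with 0.14 (SE 0.039, adjusted p = 0.0708) against FC24 and 0.24 (SE 0.047, adjusted p = 0.0109) against FC4. Tug1, an abundant lncRNA, differed by −0.05 (adjusted p = 0.268) and −0.04 (adjusted p = 0.525). Of 17 measured clock genes, 9 were higher and 2 lower in FC12 than in FC24 (median 0.106), and 5 were higher and 2 lower in FC12 than in FC4 (median 0.025). Per3, a repressor of the clock, was higher by 0.28 (SE 0.033, adjusted p = 0.000139) and 0.25 (adjusted p = 0.000456), and Bhlhe41, another repressor, by 0.32 (SE 0.042, adjusted p = 0.00035) and 0.17 (adjusted p = 0.0269). Picked after their values were seen, the lower ones were Arntl (−0.29 against FC24 and −0.22 against FC4) and, with Arntl, Rorb against FC24 (−0.18) and Npas2 against FC4 (−0.20). The 5 that were higher in FC12 than in FC4 were Per2, Per3, Cry1, Tef and Bhlhe41. Of 13 immediate early genes, which neurons switch on with activity, 0 passed in FC12 against FC24 and 1 was higher in FC12 than in FC4. This was Arc, at 0.44 (SE 0.123, adjusted p = 0.0683), and against FC24 it differed by 0.38 (adjusted p = 0.102), while Dusp1 differed by 0.16 (adjusted p = 0.28).

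Markers of the cell types of the hippocampus were measured in the same way, beside 3.19% of all probe sets against FC24 and 4.22% against FC4. Of 7 markers of pyramidal and granule neurons, Dsp, which marks dentate granule cells, was higher by 0.47 (adjusted p = 0.000363) and Prox1, their transcription factor, by 0.20 (adjusted p = 0.0537) in FC12 than in FC24. Of 5 measured oligodendrocyte markers, Opalin was lower in FC12 than in FC24 (−0.48, adjusted p = 0.000877) and than in FC4 (−0.52, adjusted p = 0.000634). Of 4 endothelial markers, Slco1a4 was higher in FC12 than in FC24 (0.28, adjusted p = 0.00958) and Cldn5 lower (−0.18, adjusted p = 0.0519). In FC12 against FC4, the markers that were higher were Prox1 (0.18), Slco1a4 (0.19) and, picked after its value was seen, Gpr17 of oligodendrocyte precursors (0.22), and besides Opalin the lower ones were Aqp4, the water channel of astrocytes (−0.13, adjusted p = 0.0118), and, picked likewise, Pecam1 of endothelial cells (−0.23). Neuronal, inhibitory neuron and microglial markers passed in 0 of 5, 0 of 6 and 0 of 6 cases in both FC12 comparisons, and choroid plexus and meningeal markers in 0 of 5 cases each. The list medians were −0.18 for choroid plexus in FC12 against FC24 and −0.146 for meningeal and mural cells in FC12 against FC4, while those of neurons were −0.018 and −0.036. Against FC24 and FC4 they were 0.017 and −0.004 for pyramidal and granule neurons (5 and 3 of 7 markers above 0). For oligodendrocytes they were −0.02 and −0.009 (2 of 5 above 0 in each). They were −0.082 and 0.023 for endothelial cells, −0.026 and −0.057 for astrocytes, and 0.056 and 0.02 for oligodendrocyte precursors. In FC4 against FC24 the lists held 3 genes past the threshold, all higher and named after their values were seen: Per1 (0.15), Ciart (0.45) and Dsp (0.30). Of all probe sets, 0.112% passed in that comparison, and nothing is read from the count.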

How the data were processed

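Groups were taken from the sample labels. The authors hybridised all arrays on a single plate, averaged repeated scans and ran RMA, and the deposited log2 signals are background corrected and quantile normalized, with 0 missing values for 35556 probe sets in 72 arrays. How many arrays there were limits the precision (median SE 0.0487 to 0.0496 for the log2 differences tested). The first principal component over the arrays (probe sets centred) was subtracted. The study's methods also remove a first component, but state a larger share of variance for it than it held here, so the components may not be the same. Comparisons used limma 3.58.1 (R 4.3.3) on the 18 arrays of each pair. The study ranked statistics by local false discovery rates, which were run as an alternative written after Efron's method. The functions were run on simulated data, with criteria to meet for limma on a pair, limma on all groups and the t-test. No criterion was set there for local false discovery rates or the replicate block. The members and gene lists were chosen with earlier results of these data known, and which values chose the members is not stated in the sources used here. Besides all members, the genes named were the 2 most like each member over the arrays, the nearest gene with a probe set on each side, and the 2 of each list with the smallest p in FC12 against FC24. Names came from the array annotation and RefSeq, in which 7 of 8 members had a promoter window, 10 windows in all. Python 3.11.15 was used for tables. There were 14 other settings. The study's quantitative PCR was not analysed here.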

Additional observations from a re-analysis of the deposited data

Results flagged for a closer look

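Each member was checked in each group for a mouse far from the others (48 sets of 9 mice), and 3 sets had such a mouse by Dixon's test, all in Meg3. Chance alone gives such a mouse in about 1 in 20 sets. In FC30 the lowest mouse, replicate 6, was at 11.29, the next at 11.41 and the other 8 at 11.46 ± 0.05 (mean ± SD). In FC4 the lowest mouse, replicate 1, was at 11.32, the next at 11.43 and the rest at 11.49 ± 0.04. In CC30 the highest mouse, replicate 5, was at 11.61, the next at 11.50 and the rest at 11.47 ± 0.02.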

How the results depend on the processing

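Of 234 tested values under other settings, 228 kept their side of the threshold, and no called value changed direction. Most of these values had not passed in the main setting, and the stricter threshold of 0.01 was not counted among them. The 4 calls lost were those of 9430053O09Rik in FC12 against FC24 and Rian in FC12 against FC4. The 2 calls gained were those of Rian in FC12 against FC24. In FC12 against FC24 the 2 members past the threshold became 1 (Mirg) with the replicate number as a replicate block (9430053O09Rik at an adjusted p of 0.165), 1 with local false discovery rates (9430053O09Rik at a rate of 0.11) and 1 at an adjusted p under 0.01. With the component from residuals within groups, or with only probe sets of 1 gene symbol beside the members, Rian passed too (adjusted p = 0.0986 and 0.0811). In FC12 against FC4, Rian was at 0.107 with the replicate block and at a rate of 0.406, and its main limma adjusted p of 0.0375 was not under 0.01. In FC4 against FC24, 0 members passed in every setting. The cause was not tested. In the 3 tested comparisons the replicate numbers did not pair the mice. There, same-numbered mice correlated at −0.105 to 0.179, and 2 of 9 correlated best with their own number in each comparison. Pairing was not checked in the described comparisons or in the gaps between trained and untrained mice. Their SEs and intervals take the mice as unpaired.

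Over all probe sets, the 1136 calls of FC12 against FC24 became 723 with the replicate block and 212 at an adjusted p under 0.01. The 1500 calls of FC12 against FC4 became 927, 266 and, by local false discovery rate, 372. The 40 calls of FC4 against FC24 became 9, 5 and 181, and 62 with 2 components subtracted or with only probe sets of 1 gene symbol. Each member had a single probe set, so no other could be tried.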
